A study of Cricetulus griseus with 4 samples.

Results

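LIMK1, ADD3 and CNN3 are 3 genes whose products act on actin filaments or on the skeleton beneath the plasma membrane. They were measured by 3 of the 1152 probes of an expression array, and are 3 of the 347 genes that could be named on it from a probe with 1 symbol. The 3 genes were chosen by their log2 ratios in mixture 1. CNN3 was chosen also by its mean over both mixtures, and LIMK1 and ADD3 also by a wide gap between the mixtures. The mixture 1 values, and every mean or difference that contains them, are therefore given as a description without a test.

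The study set RNA of chromosomally unstable clones against RNA of RT210B, a chromosomally stable clone of the same genetic background, on 4 arrays with 2 channels. Unstable mixture 1 was an equal mixture of RNA from clones LS12 and 10-107-9, measured on 2 arrays. Unstable mixture 2 was an equal mixture of clones Fe10-3 and 10-56-11, also on 2 arrays. RT210B was in the other channel of all 4 arrays, and the RNA was labelled as Chinese hamster. Each unstable value is an average over a pair of clones, and the stable side is a single clone. A difference between single clones cannot be told apart from one between stable and unstable clones. Whether the replicates were separate cultures is not stated, so errors and p-values cover the spread between arrays alone, which may be technical.

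Each value is a log2 ratio of one channel over the other, with the median of the array's 1152 probes subtracted. The numerator of the ratio could not be settled, because no dyes are given and the labels name the pools in opposite orders. A positive value therefore means only that a gene lay on the positive side of the array's middle probe. It is not read as higher in the unstable or in the stable cells. Probes are annotated with human genes, and how well hamster RNA binds them was not measured. Ratios also do not show how strongly a gene was expressed, so no level can be given.

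Actin filaments grow at one end, are cut and taken apart by cofilin, and are tied to the membrane by networks of spectrin. LIM kinases phosphorylate cofilin and so switch it off, and they are themselves switched on by other kinases. Adducins cap the growing end of filaments and recruit spectrin to them. Calponins bind along the side of filaments. The acidic calponin CNN3 is found in many cells outside smooth muscle.

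The 3 genes had 3 different patterns. LIMK1 was far on the positive side in mixture 1 and near the middle in mixture 2. ADD3 was far on the negative side in mixture 1 and slightly negative in mixture 2. CNN3 was on the positive side by a similar amount in both mixtures.

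LIMK1 (Entrez Gene 3984), the cofilin kinase, had centred log2 ratios of 1.75 and 1.56 on the arrays of mixture 1. On the arrays of mixture 2 it had 0.08 and -0.15. Both values of mixture 1 lay well above both of mixture 2, whose values fell on either side of the middle probe. For 62.2% of all probes both arrays of mixture 1 lay on 1 side of both arrays of mixture 2. LIMK1 ranked 22 and 88 from the top of the 1152 probes in mixture 1, and 537 and 713 in mixture 2. Averaged over the arrays, its log2 ratio was 1.66 (SE 0.287, 2 arrays) in mixture 1, or 3.16-fold from the middle probe, and -0.03 (SE 0.287) in mixture 2. Mixture 1 minus mixture 2 was 1.69 (SE 0.406), or 3.24-fold.

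The duplicate spots of LIMK1 disagreed on several arrays. In mixture 1 they lay at 2.04 and 1.47 on replicate 1 and at 2.18 and 0.95 on replicate 2. All 4 of these spots were positive, and all 4 lay on the same side for 60.9% of all probes. In mixture 2 they lay at 0.59 and -0.42 on replicate 1, on opposite sides of the middle, and at -0.18 and -0.12 on replicate 2. The gap of 1.01 on replicate 1 of mixture 2 was wider than that of most probes (percentile 91.8). With the first spots alone LIMK1 had a log2 ratio of 2.09 in mixture 1 and 0.22 in mixture 2, and with the second spots alone 1.17 and -0.36. The gap between the mixtures was similar either way, at 1.86 and 1.53.

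ADD3 (Entrez Gene 120), which encodes gamma-adducin, had centred log2 ratios of -2.13 and -1.71 in mixture 1. In mixture 2 it had -0.38 and -0.30. All 4 values of ADD3 were negative, as they were for 19.9% of all probes. Its values in mixture 1 did not overlap those in mixture 2, as was true of 62.2% of all probes. Counted from the bottom of the 1152 probes, ADD3 ranked 52 and 44 in mixture 1 and 374 and 353 in mixture 2. Its mean log2 ratio was -1.92 (SE 0.292, 2 arrays) in mixture 1, or 3.79-fold from the middle probe, and -0.34 (SE 0.292) in mixture 2, or 1.27-fold. Mixture 1 minus mixture 2 was -1.58 (SE 0.413), or 3.00-fold.

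Of the 3 genes, ADD3 had the widest gaps between duplicate spots on both arrays of mixture 1. Its spots lay at -1.47 and -2.80 on replicate 1 and at -2.73 and -0.69 on replicate 2. The gaps of 1.34 and 2.04 stood at percentiles 86.0 and 96.6 of all probes on these arrays. In mixture 2 the spots lay at -0.69 and -0.08 and at -0.46 and -0.13. All 8 spots of ADD3 were negative, as they were for 9.55% of all probes. The sign of ADD3 was thus the same at every spot, while its size differed widely from spot to spot. With the first spots alone its log2 ratio was -2.12 in mixture 1 and -0.56 in mixture 2, and with the second spots alone -1.79 and -0.19.

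CNN3 (Entrez Gene 1266) had centred log2 ratios of 1.37 and 0.77 in mixture 1. In mixture 2 it had 1.03 and 0.63. The 2 mixtures overlapped, and the higher value was on replicate 1 in both. CNN3 ranked 73 and 345 from the top of the 1152 probes in mixture 1, and 59 and 35 in mixture 2. Its mean log2 ratio was 1.07 (SE 0.308, 2 arrays) in mixture 1, or 2.10-fold from the middle probe, and 0.83 (SE 0.308) in mixture 2, or 1.77-fold. The mean ratio of CNN3 was smaller in mixture 2, while both of its ranks there were higher than in mixture 1. Mixture 1 minus mixture 2 was 0.24 (SE 0.436).

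The duplicate spots of CNN3 agreed more closely than those of most probes on replicate 1 of both mixtures (gaps at percentiles 17.9 and 23.1). Its gaps on replicate 2 were ordinary for their arrays, at percentile 68.2 in mixture 1 and 45.8 in mixture 2. The spots lay at 1.34 and 1.41 on replicate 1 of mixture 1. In mixture 2 they lay at 1.09 and 0.97 on replicate 1 and at 0.68 and 0.57 on replicate 2. On replicate 2 of mixture 1 they lay at 1.08 and 0.45. All 8 spots were positive, as they were for 21.7% of all probes. CNN3 was the only one of the 3 genes with every spot on the positive side.

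**Figure D1:**
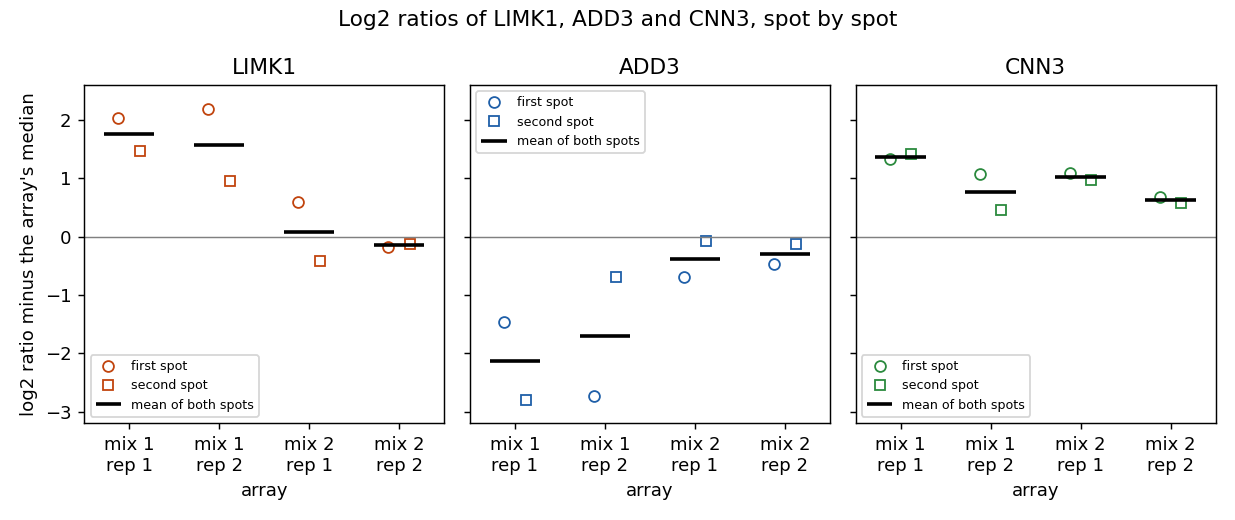
Log2 ratios of LIMK1, ADD3 and CNN3 on each of the 4 arrays, with the median over all probes subtracted from each array; circles and squares are the duplicate spots and black lines their mean. ADD3 is negative and CNN3 positive at all 8 spots, while LIMK1 is positive at all 4 spots of mixture 1 and at 1 of the 4 spots of mixture 2.

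The arrays differed in the spread of their ratios, which bears on how the mixtures compare. Centred ratios had an SD of 1.14 and 1.05 in mixture 1 and of 0.80 and 0.47 in mixture 2. When the arrays were scaled to 1 spread, mixture 1 minus mixture 2 was 1.28 for LIMK1 and -0.91 for ADD3. For CNN3 the difference of 0.24 was smaller than its error, and it changed sign to -0.35 when scaled. Without replicate 1 of mixture 1 it was -0.06. CNN3 therefore had no settled order between the mixtures. For LIMK1 and ADD3 a wide gap between the mixtures is part of how they were chosen, so nothing is read from its sign under either scaling.

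**Figure D2:**
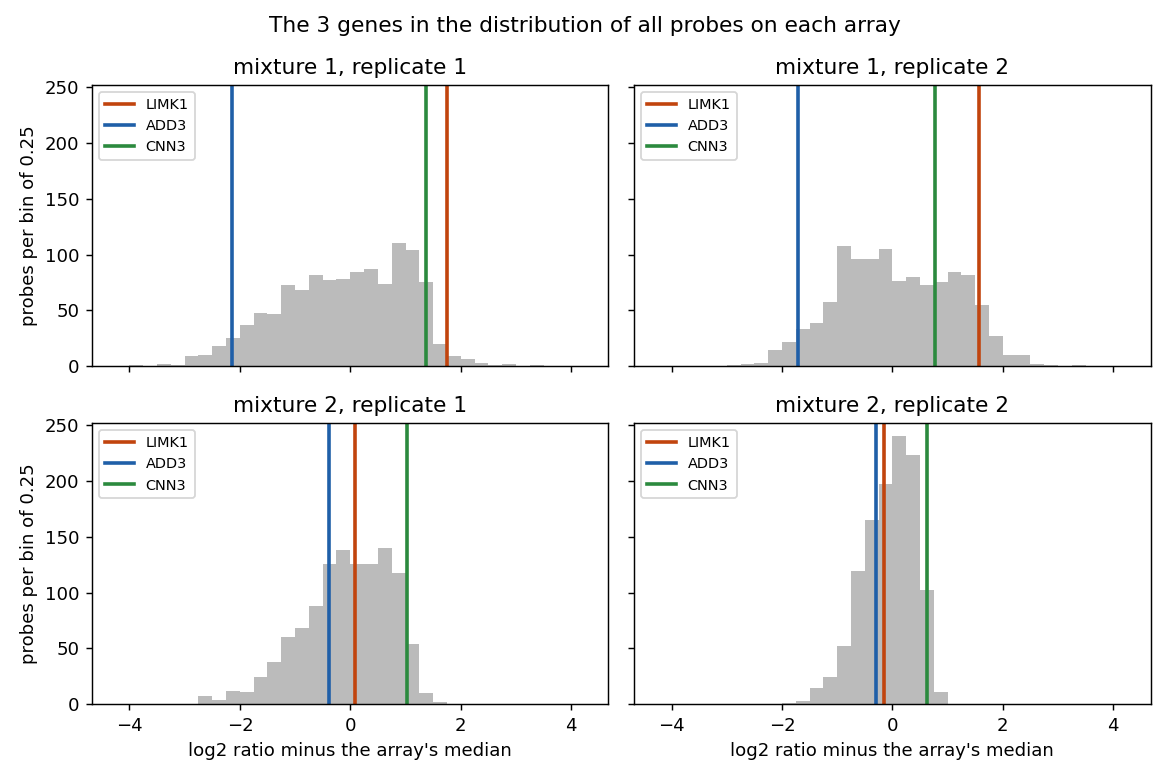
Histograms of the centred log2 ratios of all 1152 probes on each array, in bins of 0.25, with vertical lines at LIMK1, ADD3 and CNN3. The distributions are wider in mixture 1 than in mixture 2, and LIMK1 and ADD3 stand in opposite tails in mixture 1 but within the central part in mixture 2, where CNN3 is in the positive tail.

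Mixture 2 was not used by itself to pick the genes by size, and it shares the RT210B channel with mixture 1. Its values were known, and they are part of the mean used to choose CNN3 and of the gap between the mixtures for LIMK1 and ADD3. The p-values and intervals below are therefore not free of the choice of the genes. In limma with Benjamini-Hochberg adjustment over all probes, none of the 3 genes passed an adjusted p of 0.05 in mixture 2, and no probe did (0% of 1152). CNN3 came nearest, with an adjusted p of 0.249 and an unadjusted p of 0.0258 in limma, and it was positive on 2 of 2 arrays, as were 36.5% of probes. Before adjustment 226 probes (19.6%) had a p under 0.05, so that of CNN3 is not unusual on these arrays. The 95% interval of the log2 ratio of CNN3 ran from 0.13 to 1.53. For ADD3 it ran from -1.004 to 0.32 (adjusted p 0.508 in limma), and for LIMK1 from -0.69 to 0.62 (adjusted p 0.952). The width of these intervals means that LIMK1 and ADD3 are not shown to lie at the middle in mixture 2.

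The result for CNN3 in mixture 2 changed with the scaling. With the arrays scaled to 1 spread its log2 ratio was 1.12 and its limma adjusted p 0.0326. In that setting 262 of the 1152 probes passed. With mixture 2 fitted on its own 2 arrays 9.81% of probes passed and CNN3 had a limma adjusted p of 0.0790. That fit gave LIMK1, ADD3 and CNN3 the same SE (0.320), so the spread of each gene's own replicates did not enter. Without centring the ratio of CNN3 was 0.34 (limma adjusted p 0.517), because the median probe of mixture 2 lay at -0.44 and -0.53 before centring. The same setting put ADD3 at -0.82 (adjusted p 0.0755) and LIMK1 at -0.52 (adjusted p 0.258) in mixture 2.

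In mixture 1 and in the mean of both mixtures, 43.1% and 38.7% of all probes were past the threshold. Both comparisons hold the mixture 1 values that chose the 3 genes, so no call of these genes is given there. The mean log2 ratio over both mixtures was 0.81 (SE 0.203, 4 arrays) for LIMK1, -1.13 (SE 0.206) for ADD3 and 0.95 (SE 0.218) for CNN3. For LIMK1 this mean lies between a large and a near-zero value and describes neither mixture. ADD3 was negative on all 4 arrays, as were 19.9% of probes, and CNN3 was positive on all 4, as were 25.8%. In mixture 1 LIMK1 and ADD3 were at least 2-fold from the middle on both arrays, as were 23.6% of probes. CNN3 was so on replicate 1 only. For LIMK1 and ADD3 both arrays of mixture 1 lay on the same side of both arrays of mixture 2, which was true of 62.2% of all probes. No probe passed in limma for mixture 1 minus mixture 2 (0% of 1152, with 275 at an unadjusted p under 0.05).

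In the order of mixture 1 values the named genes next to LIMK1 were MAT2A (log2 1.71) above and COL11A2 (1.66) below. ADD3 stood between CTSO (-1.92) and NR2F1 (-1.94), and CNN3 between DGKD (1.07) and PXDN (1.02). No gap in the values sets the 3 genes apart from their neighbours.

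The array held few other genes of this machinery. A list of 184 actin and membrane skeleton symbols had 8 on probes with 1 symbol, the 3 genes and 5 others. These 5 were RHOG, ARHGDIA, CAPZB, PXN and ILK. CAPZB encodes a subunit of the capping protein of growing filament ends, and PXN (paxillin) and ILK (integrin-linked kinase) act in focal adhesions. No probe could be named for cofilin itself, for LIMK2, for the other adducins and calponins, for spectrins or for actins, and they were not analysed here.

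None of the 5 genes passed in limma in any of the 4 comparisons, against 43.1% of all probes in mixture 1. All 5 had negative means in mixture 1, with a median log2 ratio of -0.50, against -0.03 over all probes. In mixture 2 their median was -0.10, with 2 positive and 3 negative, against -0.0030 over all probes. RHOG came nearest to the threshold, with a log2 ratio of -1.01 (SE 0.372) in mixture 1 and 0.13 in mixture 2, and an adjusted p of 0.0547 in mixture 1 in limma. Its arrays differed widely, at -1.67 and -0.35 in mixture 1 and at 0.40 and -0.13 in mixture 2. Under 5 of 10 alternative settings RHOG passed in mixture 1, while ILK, PXN, CAPZB and ARHGDIA each passed under at most 2 of 10 in any comparison. For a value of 1 mixture, the 2 settings that leave out an array of the other mixture are the same fit. Both are counted among the 10, and both among the 5 of RHOG.

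Replicates of mixture 1 disagreed in sign for 3 of the 5 genes. In mixture 1 ILK lay at -1.31 and 1.14, PXN at 0.28 and -1.27, and CAPZB at -1.26 and 0.26. Their means in mixture 1 were -0.08, -0.50 and -0.50, and the sign of each rests on a single array. ARHGDIA was negative on both arrays of mixture 1, at -0.74 and -0.15, and lay at 0.01 and -0.22 in mixture 2.

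A further 10 genes linked to actin were drawn from the gene names on the array, outside the list above. GMFB, a member of the cofilin fold family that takes apart branched actin networks, had log2 ratios of 0.93 and 1.39 in mixture 1 and 0.59 and 0.39 in mixture 2. KALRN (kalirin), an exchange factor that activates Rac, had 0.84 and 1.38 in mixture 1 and 1.05 and 0.51 in mixture 2. Both genes were positive on all 4 arrays, as were 25.8% of all probes. They were the 2 of 10 that passed in mixture 1, a smaller share than the 43.1% of all probes, with adjusted p-values of 0.0154 for GMFB and 0.0213 for KALRN in limma. They were also the 2 of 10 that passed in the mean of both mixtures, where 38.7% of all probes did, at 0.82 (limma adjusted p 0.0165) and 0.95 (adjusted p 0.0132). Without replicate 2 of mixture 1 neither passed in mixture 1, at 0.93 (limma adjusted p 0.0868) for GMFB and 0.84 (adjusted p 0.120) for KALRN. Without replicate 1 of mixture 2 neither passed in the mean, at 0.77 (limma adjusted p 0.0861) and 0.81 (adjusted p 0.0721). With the trend on the gap between duplicate spots removed, KALRN passed in neither, at 0.47 in mixture 1 (limma adjusted p 0.324) and 0.49 in the mean (adjusted p 0.176).

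The other 8 genes did not pass in mixture 1, in mixture 2, in the mean or in the difference. PLEKHO1, whose product binds the actin capping protein, was negative on all 4 arrays, but at -0.05 and -2.08 in mixture 1 and at -1.68 and -0.18 in mixture 2. In the mean its log2 ratio was -0.996 (SE 0.362, limma adjusted p 0.0563). It passed under 6 of 10 alternative settings there, under 4 of 10 in mixture 1 and under 2 of 10 in mixture 2. The 2 in mixture 2 were the same fit, as were 2 of the 4 in mixture 1. DST, a plakin that links cytoskeletal filaments, was also negative on all 4 arrays, between -0.59 and -0.23. EPS8, which caps and bundles filaments, lay at -1.37 and 0.98 in mixture 1. The remaining genes TRIP10, NET1, FYB1, AIF1 and TNK2 had mean log2 ratios between -0.88 and 0.15 in mixture 1 and between -0.29 and 0.34 in mixture 2. DST, EPS8 and FYB1 passed under 1 or 2 of the 10 alternative settings in at least 1 comparison, and TRIP10, NET1, AIF1 and TNK2 under none. Over the 10 genes the median was -0.26 in mixture 1 and 0.01 in mixture 2.

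**Figure D3:**
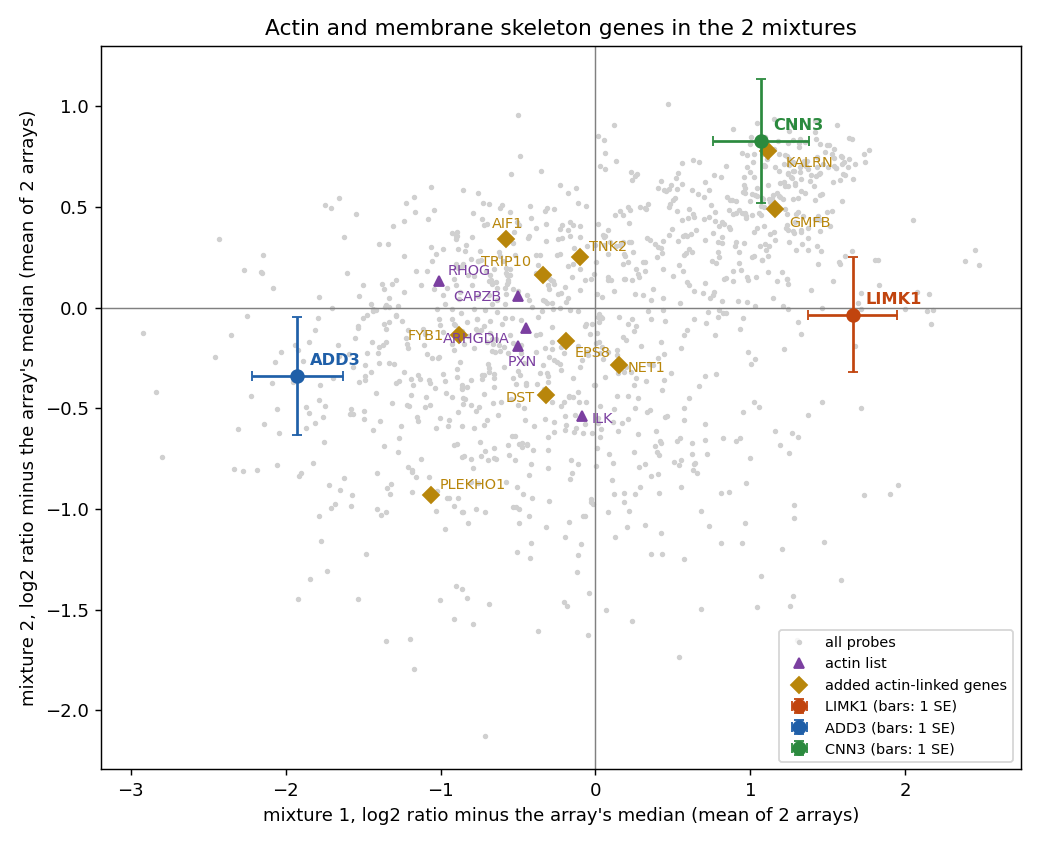
Mean log2 ratio of each probe in mixture 1 (horizontal axis) and in mixture 2 (vertical axis), 2 arrays each, centred on the array's middle probe; bars on LIMK1, ADD3 and CNN3 are 1 SE, triangles the 5 other genes of the actin list, diamonds the 10 added genes and grey points all probes. LIMK1 and ADD3 lie at opposite ends of the mixture 1 axis near 0 in mixture 2, and CNN3 lies beside KALRN and GMFB in a dense group of probes that are positive in both.

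The named probes closest in pattern were found by the root mean square difference over the 4 centred array values, among 347 named probes. For LIMK1 they were HOXD3 (0.370), KRT4 (0.415) and AQP1 (0.419), where the median named probe differed by 1.31. For ADD3 they were 1 of the 2 probes of GJA1 (0.260), SLC26A2 (0.269) and CTSO (0.278), against a median of 1.51. For CNN3 they were RCBTB2 (0.149), OR2A1-AS1 (0.189) and HOXB9 (0.199), against a median of 1.28. The other probe of GJA1 had log2 ratios of -1.53 and -0.56 in mixture 1 and of 0.27 and -0.09 in mixture 2.

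The pattern of CNN3 was a common one on these arrays. Of the 1151 other probes, 174 (15.1%) lay within a root mean square difference of 0.5 of CNN3, against 46 (4%) for LIMK1 and 59 (5.13%) for ADD3. The duplicate spots of the probes around CNN3 lay close together, at a median gap of 0.127, against 0.372 over all probes. The median gap was 0.525 among the probes around ADD3 and 0.241 among those around LIMK1. CNN3 itself had a mean gap of 0.234, LIMK1 one of 0.720 and ADD3 one of 1.08. The part of the spot agreement in these ratios was not tested as a cause. When each array's ratios were corrected for their trend with the duplicate gap, the mixture 1 ratios were 1.95 for LIMK1, -1.61 for ADD3 and 0.89 for CNN3, and the mixture 2 ratios 0.11, -0.08 and 0.61.

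**Figure D4:**
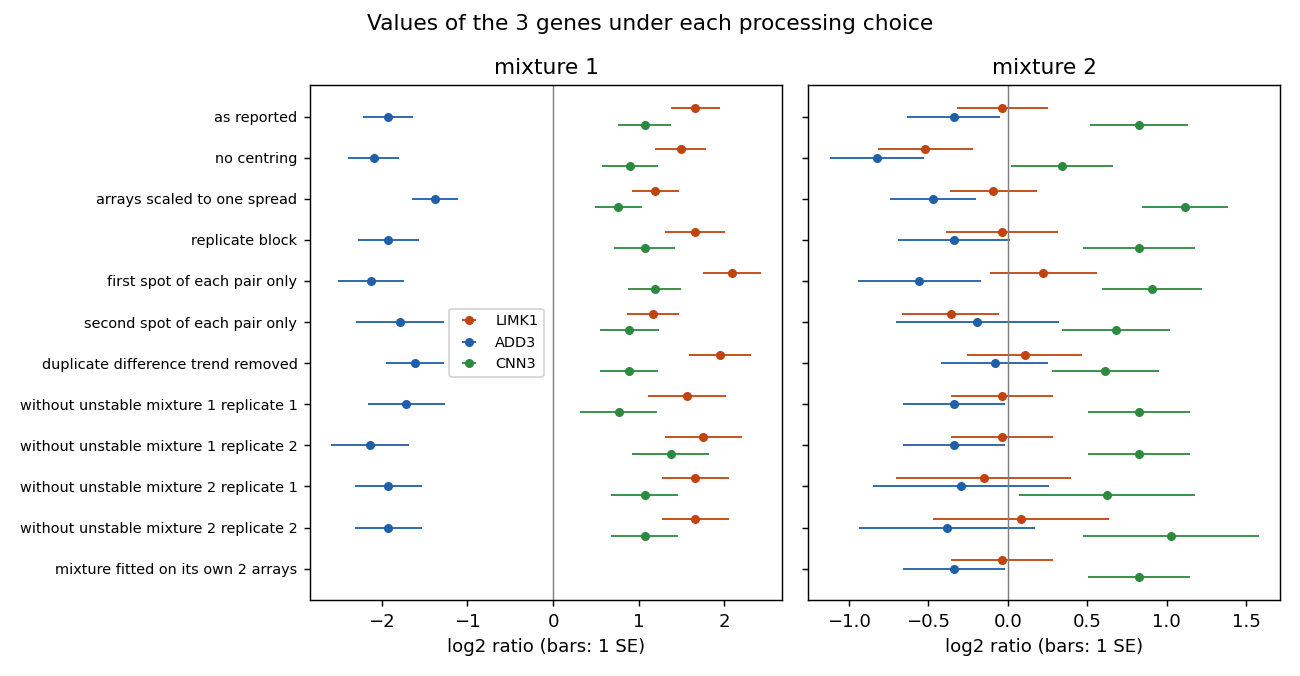
Log2 ratios of LIMK1, ADD3 and CNN3 in mixture 1 (left) and mixture 2 (right) as reported and under each alternative, with bars of 1 SE; the scales of the panels differ. In mixture 1 each gene keeps its sign under every alternative shown. Nothing is read from this, since the genes were chosen by those values. In mixture 2 ADD3 and CNN3 keep their signs, while LIMK1 lies between -0.52 and 0.22.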

How the data were processed

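The authors deposited 1 log2 ratio of the channels for each of 2304 spots. Per the labels, a normalization factor of 3.8 belongs to replicate 2 of mixture 1 and one of 1.169 to replicate 1 of mixture 2. Dyes, scanner, background correction and filters: not given in the sources used here. No depth applies to arrays, and the number of arrays limits the precision. Groups and replicate numbers came from the sample titles.

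Adjacent spots were averaged to 1152 probes. Paired spots correlated at 0.725 to 0.819 across probes, and unpaired neighbours at 0.003 to 0.074. Genes were named from GEO's platform annotation (350 probes with 1 symbol, 8 with several, 794 unnamed here). In the hamster RefSeq gene table, 2 of the 3 symbols matched, those of LIMK1 and CNN3, and that of ADD3 did not. Each array was centred on its median, and limma 3.58.1 in R 4.3.3 fitted 1 mean per mixture (lmFit, eBayes, Benjamini-Hochberg over all probes, threshold 0.05), after a test on simulated data. The fit had 2 residual and 6.69 prior degrees of freedom. RT210B entered as 1 control sample, so its own spread is left out.

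Members and lists were chosen with earlier results of these data known, and the 10 added genes after the gene names on the array were read. The text names the 3 members, every measured list gene, the 3 most similar named probes of each member and its neighbours in mixture 1. Alternatives were no centring, 1 spread, a replicate block, single spots, removal of the duplicate-difference trend, mixture 2 alone and leaving out each array. The replicate differences of the mixtures correlated at -0.098 across probes, so the replicate numbers were not taken to pair the arrays. No sequence of these probes was analysed here.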

Additional observations from a re-analysis of the deposited data

Results flagged for a closer look

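HOXD3, the named probe closest in pattern to LIMK1, was positive on both arrays of mixture 1 (1.38 and 1.54) and negative on both arrays of mixture 2 (-0.22 and -0.72). It is given here because the mixtures lay on opposite sides of the middle probe. Mixture 1 minus mixture 2 was 1.93 (SE 0.418), with a limma adjusted p of 0.0744, which does not pass. It was named for its likeness to LIMK1 on these same arrays, so it is no separate evidence of a difference between the mixtures.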

How the results depend on the processing

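The values of LIMK1, ADD3 and CNN3 changed under several settings, and more often with the arrays scaled to 1 spread than under any other single setting. In mixture 1 LIMK1 then had a log2 ratio of 1.19 and ADD3 one of -1.38. CNN3, at 1.12, was then among the 262 of 1152 probes that passed in mixture 2. Mixture 2 is part of the mean used to choose CNN3, so that pass is not free of the choice. With the same scaling, mixture 1 minus mixture 2 was 1.28 for LIMK1, -0.91 for ADD3 and, with its sign turned, -0.35 for CNN3. With the first spots alone LIMK1 lay at 2.09 in mixture 1 and turned to 0.22 in mixture 2, and with the second spots alone at 1.17 in mixture 1 and 0.40 in the mean. With the duplicate-difference trend removed LIMK1 turned to 0.11 in mixture 2. Leaving out each array moved LIMK1 in mixture 2 between -0.15 and 0.083, and CNN3 in mixture 1 minus mixture 2 between -0.062 and 0.54. Counts of probes past the threshold moved more. In mixture 1, 497 became 231 with 1 spread and 248 with the trend removed. In mixture 2, 0 became 206 without centring, 262 with 1 spread and 113 on its own arrays, and 0 to 113 with an array left out. In the mean, 446 became 136 with the trend removed and 219 to 505 with an array left out. In the difference, 0 became 47 without centring, 36 with the replicate block, 17 with the trend removed and 0 to 213 with an array left out. The replicate block left every value of the 3 genes as it was, and changed no call of theirs. A fit without an array leaves that mixture with 1 array, assumed to vary like the others. No filter on dim spots or other background correction was run, since intensities were not used here. Among the added genes GMFB and KALRN lost their calls in mixture 1 with 1 spread (0.84 and 0.81), GMFB also with the second spots (0.95) and KALRN with the trend removed (0.47). In the mean GMFB lost its call without centring (0.50) and KALRN with the trend removed (0.49). The causes of these changes were not tested.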
